A study of Mus musculus with 4 samples.

Results

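Oxidative phosphorylation subunit genes are described here as they appear in open chromatin of mouse Th17 cells, a class of CD4 helper T cells known for making interleukin 17. The members are the protein-coding nuclear genes of GENCODE release M21 whose symbols begin with Ndufa, Ndufb, Ndufc, Ndufs, Ndufv, Uqcr, Cox4 to Cox8 or Atp5, plus Sdha, Sdhb, Sdhc, Sdhd and Cyc1, with the Ndufaf genes left out. The rule gave 86 of the 21911 protein-coding genes on chromosomes 1 to 19, X and Y. By symbol, 38 belong to complex I, 4 to complex II, 9 to complex III, 18 to complex IV and 17 to complex V. Primary Th17 cells of strain C57BL/6NJ were profiled by ATAC-seq, an assay whose transposase cuts and tags accessible DNA. It holds 1 group of 4 biological replicates, with no second condition, and the labels give sex as not collected and age as unknown. All 4 carry the same donor identifier, so the spread between replicates may be partly technical. In a bulk sample, fewer cells with an open promoter and a less open promoter in every cell cannot be told apart.

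The respiratory chain sits in the inner mitochondrial membrane. Complexes I and II take electrons from NADH and succinate and pass them through ubiquinone to complex III. Cytochrome c carries them on to complex IV, which reduces oxygen. Complexes I, III and IV pump protons, and complex V, the ATP synthase, uses the returning protons to make ATP. Most subunits are encoded in the nucleus and a few, in complexes I, III, IV and V, in the mitochondrial genome. T cells raise both glycolysis and respiration when they are activated, and mitochondrial respiration is known to bear on Th17 differentiation. Some complex IV subunits exist as a widely expressed form and as a form restricted to muscle, lung or testis.

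A promoter was called open in a replicate when at least 1 deposited region overlapped the 1000 bp on either side of an annotated transcription start site (TSS) of the gene. The lists held 83904, 85127, 85293 and 84137 regions in replicates 1 to 4. Without read counts in the lists, the depth is unknown, and precision is the spread between replicates. The strength of a promoter is given as the percentile of its strongest region's signal among all regions of the same replicate, with 100 the strongest. The signal is read here as enrichment over background from the layout of the lists, since the peak caller is not named. A percentile is compared within each list. The cell label was checked against marker genes. All 5 T cell markers (Cd3e, Cd3d, Cd4, Zap70 and Lck) and all 5 Th17 markers (Il17a, Il17f, Il23r, Ccr6 and Il21) were open in all 4 replicates. None of 3 B cell, 3 myeloid or 3 testis markers was open in any replicate. Cd8a had no region and Cd8b1 was open in all 4. The muscle markers Ckm and Mylpf were also open in all 4, and the hepatocyte marker Apoa1 in 3. An open promoter alone therefore does not identify the cell type.

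The promoter sequences that follow are those of the member with the highest mean signal percentile in each complex. They show how different such promoters are in sequence. Each runs from 150 bases before to 20 bases after the TSS of the principal transcript, 5′ to 3′ on the strand of the gene, from the RefSeq copy of GRCm38.p6 (mm10). Capitals mark matches, on either strand, to the transcription factor strings searched: the palindromic NRF1 string (10 letters, spelled by the capitals of the NRF1 matches printed further on), a looser NRF1 string in which the fifth letter may be any base, CCGGAAG (ETS factors such as GABP), AAGATGGC (YY1), CCAAT (NFY), GGGCGG (SP/KLF), TCAAGGTCA (ERR-like), TGACGTCA (CREB) and TGANTCA (AP-1). The looser NRF1 string contains the stricter one. A match is a description of letters and not a binding site.
Ndufb6: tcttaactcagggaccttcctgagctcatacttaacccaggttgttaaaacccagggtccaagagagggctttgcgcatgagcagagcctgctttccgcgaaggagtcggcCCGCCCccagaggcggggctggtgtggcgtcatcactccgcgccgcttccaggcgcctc
Sdhc: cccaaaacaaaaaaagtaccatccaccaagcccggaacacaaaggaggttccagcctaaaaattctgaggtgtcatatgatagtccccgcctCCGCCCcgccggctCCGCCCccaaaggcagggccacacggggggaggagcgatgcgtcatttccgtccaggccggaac
Uqcrb: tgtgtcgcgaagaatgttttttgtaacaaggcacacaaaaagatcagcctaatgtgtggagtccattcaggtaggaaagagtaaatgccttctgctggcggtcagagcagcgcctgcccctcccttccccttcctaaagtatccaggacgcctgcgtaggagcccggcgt
Cox7c: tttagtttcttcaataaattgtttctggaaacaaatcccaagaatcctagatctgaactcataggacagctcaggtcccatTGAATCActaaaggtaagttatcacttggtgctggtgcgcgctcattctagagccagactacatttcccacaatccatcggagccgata
Atp5g1: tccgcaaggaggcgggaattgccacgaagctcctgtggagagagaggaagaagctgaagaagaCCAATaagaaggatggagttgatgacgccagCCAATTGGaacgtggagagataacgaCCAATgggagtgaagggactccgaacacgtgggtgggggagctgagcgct
Ndufb6, an accessory subunit gene of complex I, lies on the minus strand at chr4:40279402-40279571 over this stretch. Sdhc, which encodes a membrane anchor of succinate dehydrogenase, is on the minus strand at chr1:171150584-171150753. Uqcrb, a ubiquinone-binding subunit gene of complex III, is on the minus strand at chr13:66905359-66905528. Cox7c, a small complex IV subunit gene, is on the minus strand at chr13:86046885-86047054. Atp5g1, a gene of the proton-translocating c subunit of ATP synthase, is on the minus strand at chr11:96075651-96075820. The 5 stretches share no single string: Ndufb6 and Sdhc hold the SP/KLF string, Cox7c the AP-1 string, Atp5g1 several copies of the NFY string, and Uqcrb none of those searched. The Atp5g1 summits stood 211 bp before the TSS in replicates 1 to 3, outside the printed stretch, and 116 bp before it in replicate 4.

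Nearly all members had an open promoter. In all 4 replicates 81 of the 86 were open (94.2%), and single replicates had 82, 81, 81 and 81. The background over all protein-coding genes was 64.1%, or 14054 of 21911. Promoters rich in CpG dinucleotides are open in most cell types, so the background was also taken by the ratio of observed to expected CpG within 500 bp of the TSS. Of genes with a ratio of at least 0.6, 93.9% were open, and of genes under 0.6, 37.4%. All 69 members with a ratio of at least 0.6 were open, as were 12 of the 17 under 0.6. Taken by class, the 69 open of 69 lie near the 93.9% background of CpG-rich genes. The 12 of 17 under 0.6 stood above the 37.4% of their class, though on few genes. The ratio was taken at the principal TSS, while a region at any annotated TSS made a promoter open. With the principal TSS alone, Ndufs5, at a ratio of 0.467, was not open in all 4 replicates. Others of the 12 lay near the limit: Ndufa5 at 0.590, Uqcr11 at 0.576, and Ndufb10 and Ndufs8 at 0.571.

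The 5 members not open in all 4 replicates were Cox6a2, Cox7b2, Cox8b, Cox8c and Ndufa4l2. Each is a tissue-restricted or inducible relative of a widely expressed subunit. Cox6a2, the heart and skeletal muscle form of subunit 6a, had no promoter region in any replicate. Cox7b2 and Cox8c, known as testis forms, had none either. Ndufa4l2, a relative of Ndufa4 that is induced by hypoxia, also had none. Cox8b, a rodent muscle and brown fat form, had 1 region, in replicate 1, with its summit at −1095 bp from the TSS and a signal of 3.30, at percentile 15.9. The CpG ratio of these 5 ran from 0.186 to 0.468, while the lowest among open members was 0.162, for Cox4i2. Outside the list of 8 tissue-restricted genes, all 78 members were open.

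By complex, 37 of 38 genes of complex I, 4 of 4 of complex II, 9 of 9 of complex III, 14 of 18 of complex IV and 17 of 17 of complex V were open. The median percentile of the open members was 88.4 ± 0.892 in complex I and 87.5 ± 1.78 in complex II. It was 87.6 ± 1.35 in complex III, 80.8 ± 2.29 in complex IV and 85.9 ± 1.52 in complex V (SD over 4 replicates throughout). Complex IV was lowest, and its replicates ran from 77.4 to 82.4 against 83.8 to 87.0 in complex V, the next in order. The medians of complexes I, II and III differed by less than 1 SD of complex II. These are medians of genes chosen by symbol, and complex II has only 4.

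**Figure D1:**
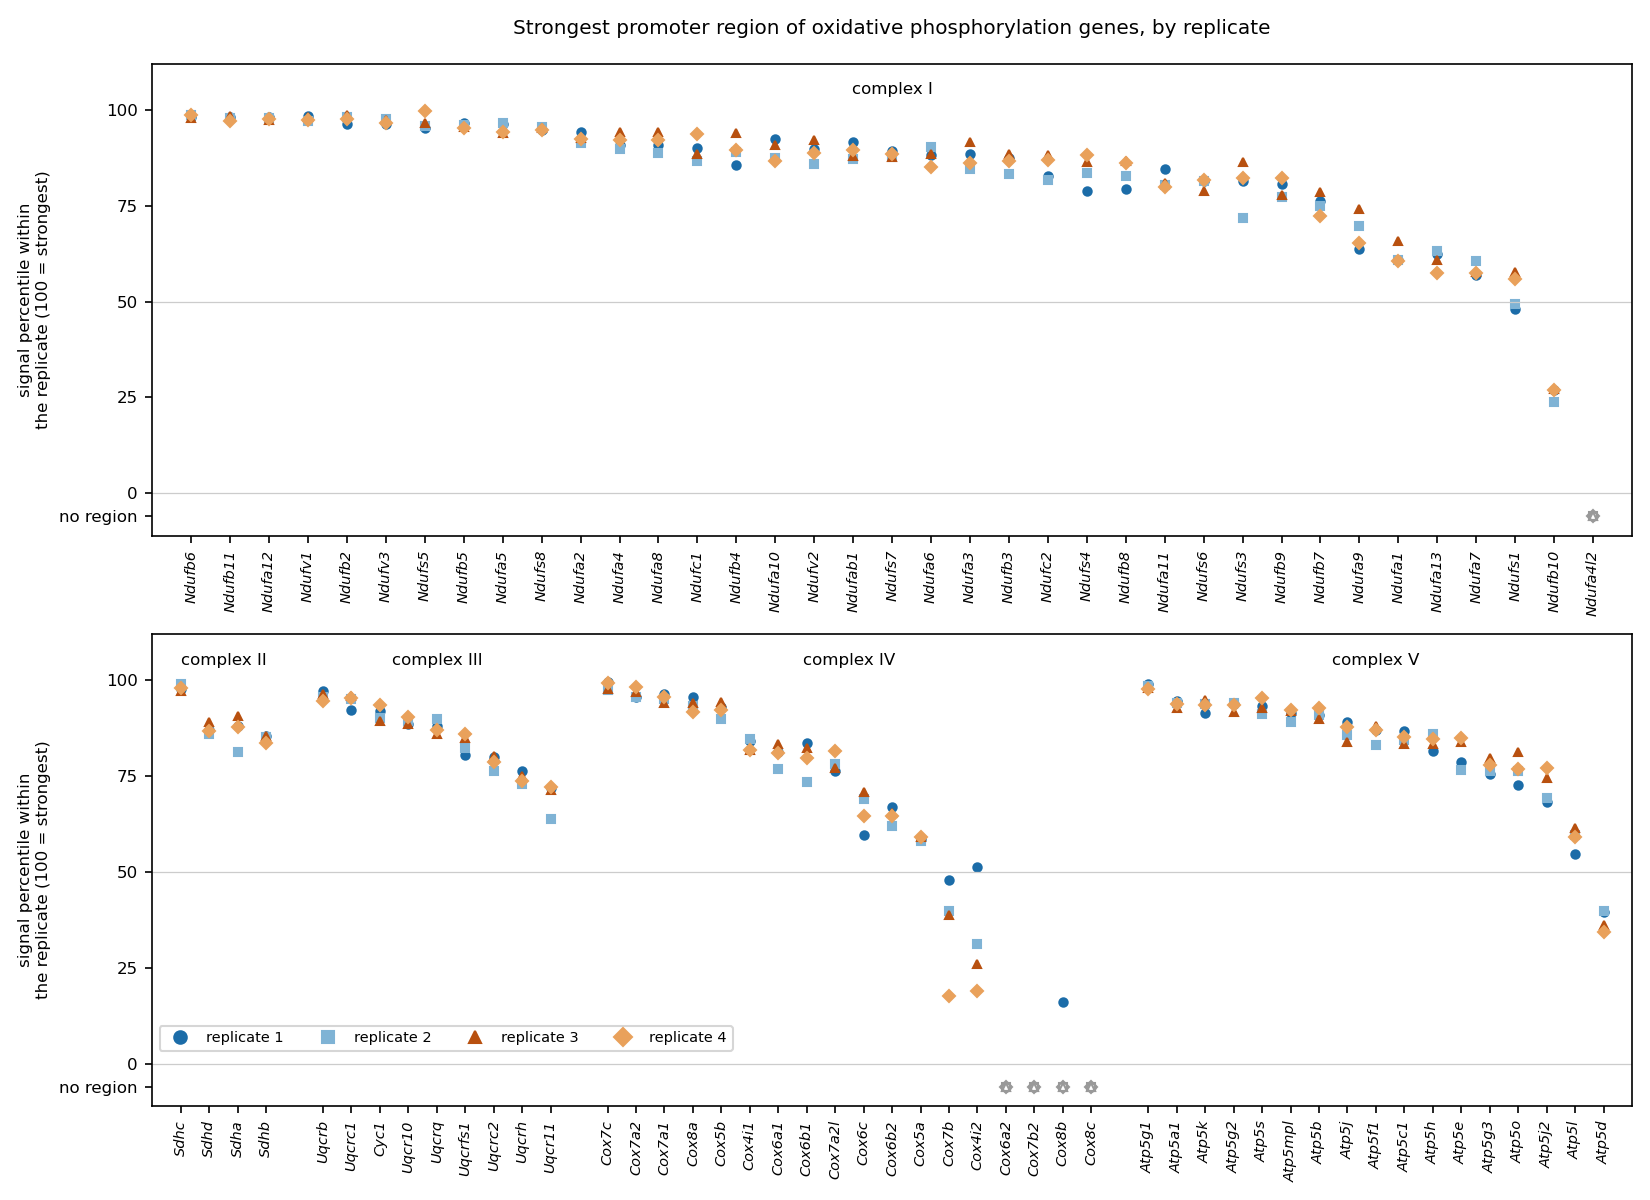
Signal percentile of the strongest promoter region of 85 of the 86 genes (vertical axis, 100 = strongest region of the replicate), 1 symbol per replicate, genes ordered by their mean within each complex. Most genes sit above 75 with the 4 replicates close together, Ndufb10, Cox4i2, Cox7b and Atp5d sit low, and grey symbols mark replicates without a region.

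Complex I is the entry point for electrons from NADH. Its 7 nuclear core genes, which carry the flavin and iron-sulphur clusters, had a median percentile of 89.0 ± 1.14. Its 30 open accessory genes had 87.8 ± 0.737, so core and accessory genes differed by about the spread between replicates. Ndufb6 had the highest mean signal percentile of all members. It was at 98.1, 98.7, 97.9 and 98.7 in replicates 1 to 4, a mean of 98.4 ± 0.42. Its deposited signal averaged 16.8 ± 0.834. Cox7c of complex IV had nearly the same mean percentile, 98.3 ± 1.01. Ranked by −log10 q in place of signal, Ndufb6 stood at 93.2 ± 0.388, below Ndufs8, a core gene, at 99.5 ± 0.0416. Ndufb11, an X-linked accessory gene, was at 98.0, 98.0, 98.2 and 97.1 by signal. The replicates of Ndufb6 and of Ndufb11 lay within about 1 percentile of each other.

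The same complex also held the weakest open member. Ndufb10, an accessory subunit gene, was at 26.8, 23.8, 27.3 and 26.8, a mean of 26.2 ± 1.60, with a signal of 3.96 ± 0.0842. All 4 replicates were low. Its region was wide, at 2141 ± 28 bp, and ranked by −log10 q in place of signal it stood at percentile 69.7 ± 0.749. Ndufs1, the largest core subunit gene, was at 48.0, 49.2, 57.6 and 55.8, and ranked by −log10 q it stood at 81.0 ± 3.04. The low places of Ndufb10 and Ndufs1 therefore depend on the measure of strength. Ndufs3, another core gene, had one of the 3 largest spreads, at 81.4, 71.7, 86.4 and 82.2, with replicate 2 lowest.

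Complex II, succinate dehydrogenase, also works in the citric acid cycle and is the complex with no subunit in the mitochondrial genome. Sdha, the flavoprotein gene, was at 87.9, 81.3, 90.7 and 87.7. Sdhb, the iron-sulphur subunit gene, was at 85.4, 85.2, 85.5 and 83.7. Sdhc, a membrane anchor gene, was at 97.6, 98.9, 97.2 and 97.9. Sdhd, the other anchor gene, was at 87.0, 85.8, 89.0 and 86.8. By signal, Sdhc stood above Sdha, Sdhb and Sdhd in every replicate. The signal range of Sdha overlapped those of Sdhb and Sdhd, and by signal Sdhd stood above Sdhb in every replicate. This order changed when regions were ranked by −log10 q. Sdhb then stood above Sdha, Sdhc and Sdhd in every replicate, at 96.97 ± 0.168 against 89.97 ± 0.780 for Sdhc. Sdhd also stood above Sdhc by that ranking, except in replicate 1. The place of Sdhc as the highest gene of complex II therefore depends on the measure of strength.

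In complex III, Uqcrb was highest by signal, at 97.1, 95.6, 96.2 and 94.5. Uqcr11, a small subunit gene, was lowest, at 71.8, 63.8, 71.4 and 72.1. Their ranges did not overlap. Ranked by −log10 q, Uqcrq stood above Uqcrb, at 97.7 ± 0.401 against 87.2 ± 1.14. Cyc1, which encodes cytochrome c1, the haem subunit that hands electrons to cytochrome c, was at 92.0, 90.2, 89.3 and 93.6. Cycs, the somatic cytochrome c gene, which is not a member, was open at 97.8 ± 0.368, while Cyct, its testis form, had no region in any replicate.

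Complex IV, cytochrome c oxidase, ranged from near the top of the lists to low in them. Cox7c was its highest gene by signal, at 99.3, 97.3, 97.7 and 99.1, a mean of 98.3 ± 1.01. Ranked by −log10 q, Cox7c stood at 90.3 ± 1.42, below Cox8a at 97.8 ± 0.477. Cox4i2, the lung form of subunit 4, was the lowest open gene of complex IV. It was at 51.3, 31.1, 26.0 and 18.8, with the largest SD of any member, 13.9. Ranked by −log10 q it stood at 25.5 ± 10.8 and was again low. Replicate 1 stood well above the other three.

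Cox7b, an X-linked subunit gene, was at 47.7, 39.7, 38.8 and 17.7, with the second largest SD, 12.8. Replicate 4 was lowest. These values came from a region downstream of an internal TSS, with summits 803 to 865 bp from it. The same summits lay 4494 to 4556 bp downstream of the principal TSS. A weaker region lay at the principal TSS itself in every replicate, at percentiles 13, 5.01, 12.0 and 9.47, with summits at 64, 29, 30 and −15 bp. Cox7b was thus low in the lists by both of these regions.

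The widely expressed and tissue-restricted forms were set side by side. All 7 widely expressed genes were open, as were 3 of the 8 tissue-restricted genes. Cox4i2 was weaker in every replicate than its widely expressed relative Cox4i1, which was at 84.0, 84.6, 81.8 and 81.7. Cox6b2, known as a testis form, was at 66.8, 62.0, 65.3 and 64.5, below Cox6b1 at 83.7, 73.4, 82.4 and 79.6. The ranges of both these sets of relatives did not overlap. The widely expressed relatives of the closed genes stood at 80.6 ± 2.72 for Cox6a1, 36.0 ± 12.8 for Cox7b, 93.7 ± 1.60 for Cox8a and 91.7 ± 1.89 for Ndufa4. Ndufa4, named for complex I, is now placed in complex IV.

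Cox7a1, the heart and skeletal muscle form of subunit 7a, departed from the other tissue-restricted genes. It was at 96.2, 95, 94.0 and 95.4, against 95.6, 95.4, 96.8 and 98.2 for its widely expressed relative Cox7a2. These signal ranges overlapped. Ranked by −log10 q, Cox7a1 stood above Cox7a2 in every replicate, at 96.2 ± 1.14 against 91.5 ± 1.13. The CpG ratio of Cox7a1 was 0.277 and its region was narrow, at 736 ± 24.6 bp, with summits 20 to 57 bp before the TSS. No other protein-coding TSS lay in its window. Of 3 muscle markers, Ckm was open at percentile 54.3 ± 7.52 and Mylpf at 81.9 ± 0.88, while Acta1 had no region in any replicate; their part in the result was not tested. Neither hepatocyte marker was open in all 4 replicates: Alb had no region and Apoa1 had one in 3.

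**Figure D2:**
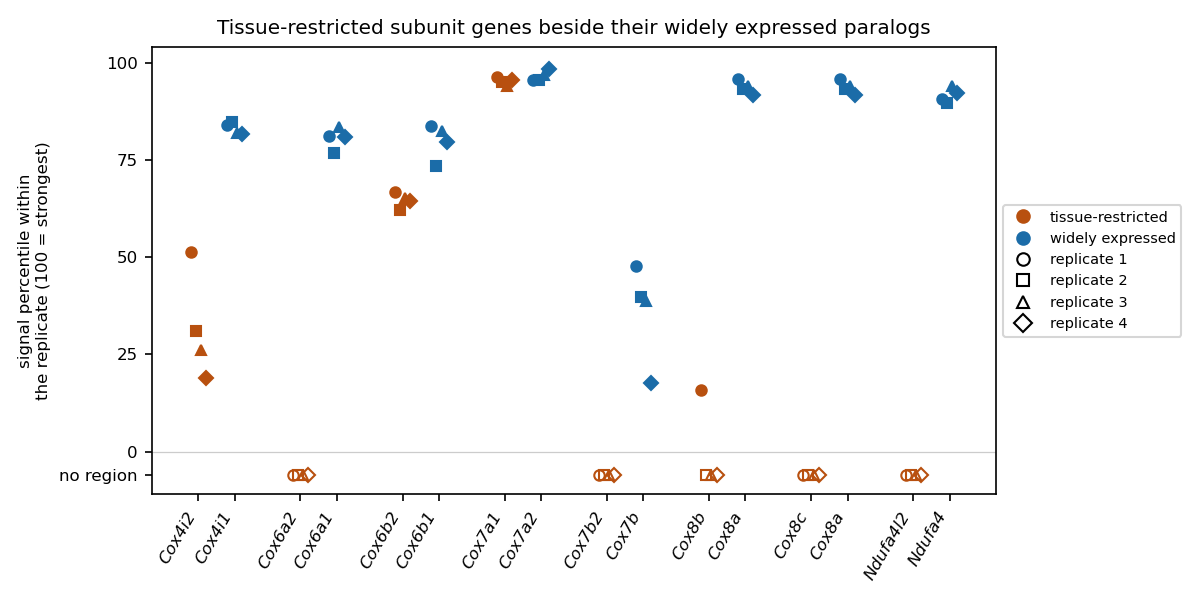
Signal percentile by replicate (vertical axis, 100 = strongest region of the replicate) for each tissue-restricted subunit gene (left of each set, orange) and its widely expressed relative (right, blue), with open symbols for replicates without a region. Cox7a1 lies beside Cox7a2 near the top, Cox4i2 and Cox6b2 lie below their relatives, and Cox7b is low although widely expressed.

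The promoters of Cox7a1, which was open, and of Ndufa4l2 and Cox8b, which were not open in all replicates, are printed with the same limits and the same marks so that they can be compared.
Cox7a1: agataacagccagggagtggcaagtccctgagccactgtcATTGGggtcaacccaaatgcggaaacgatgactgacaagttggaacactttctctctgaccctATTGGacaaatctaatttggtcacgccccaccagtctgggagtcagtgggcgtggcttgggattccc
Ndufa4l2: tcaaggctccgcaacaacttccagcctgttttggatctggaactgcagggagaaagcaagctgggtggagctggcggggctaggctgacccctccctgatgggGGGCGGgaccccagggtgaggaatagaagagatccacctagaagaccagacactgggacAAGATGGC
Cox8b: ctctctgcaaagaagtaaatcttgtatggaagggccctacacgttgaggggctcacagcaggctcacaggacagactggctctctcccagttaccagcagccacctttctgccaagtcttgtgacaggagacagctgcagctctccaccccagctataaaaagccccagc
Cox7a1 is on the plus strand at chr7:30183994-30184163, Ndufa4l2 on the plus strand at chr10:127514817-127514986 and Cox8b on the minus strand at chr7:140900427-140900596. The Cox7a1 stretch holds the NFY string in its reverse form at 2 places. The closed Ndufa4l2 promoter holds an SP/KLF and a YY1 string, so the presence of these letters did not go with openness there. The Cox8b stretch holds none of the strings.

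In complex V the c subunit is encoded by 3 genes that give the same mature protein. Atp5g1 was at 98.9, 98.5, 97.9 and 97.5. Atp5g2 was at 93.6, 94.0, 91.7 and 93.5. Atp5g3 was at 75.6, 76.2, 79.5 and 77.8. The order Atp5g1, Atp5g2, Atp5g3 held in every replicate, without overlap. The 5 genes of the catalytic F1 head (Atp5a1, Atp5b, Atp5c1, Atp5d and Atp5e) had a median of 85.0 ± 1.27, and the 4 genes of the peripheral stalk (Atp5f1, Atp5h, Atp5j and Atp5o) 84.5 ± 0.937. Within the head, Atp5a1 and Atp5b, which encode the alpha and beta subunits, stood at 93.7 ± 0.68 and 91.1 ± 1.26. Atp5d, which encodes the delta subunit of the central stalk, was at 39.4, 39.7, 36.2 and 34.4. It was low in all 4 replicates, although ranked by −log10 q it stood at 77.8 ± 1.35. The windows of its annotated start sites together held 3 or 4 separate regions in each replicate, and the strongest covered the principal TSS. An annotated start site of Atp5d faces the TSS of Cbarp on the opposite strand.

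The open members were then compared with the other open protein-coding genes, overall and where the CpG ratio was at least 0.6. Their median percentile was 87.2 ± 1.15, against 79.2 ± 0.484 for 13973 other open genes and 81.9 ± 0.462 for the 9673 of these that were CpG-rich. In single replicates the members had 87.9, 85.7, 88.3 and 87.0. The 69 CpG-rich members had 87.5 ± 1.14. Each replicate's median was therefore higher for the members than for either set of other genes. The spread covers the replicates and not the choice of genes. Ranked by −log10 q the gap was smaller, at 89.7 ± 0.846 for the 69 CpG-rich members against 88.6 ± 0.474 for the other CpG-rich open genes, with the members higher in each of the 4 replicates.

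The members also had fewer weak promoters. Regions in the top 10% of signal made up 38.0% ± 4.08 of the members' strongest regions, against 26.0% ± 0.540 for the other open genes and 29.1% ± 0.713 for the CpG-rich ones. Regions under the 50th percentile made up 5.25% ± 0.617, against 15.4% ± 0.842 and 10.8% ± 0.683. Of the 81 open members, 23 were in the top 10% in every replicate, against a background of 20.6% of open genes. Another 42 were there in no replicate, and 3 were under the 50th percentile in all 4. Over the 81 genes, Spearman's rho of the percentile between replicates was 0.948 to 0.968, a description across genes that share a library. The median SD of a gene's percentile was 1.84, and 77 of the 81 had an SD under 5.

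**Figure D3:**
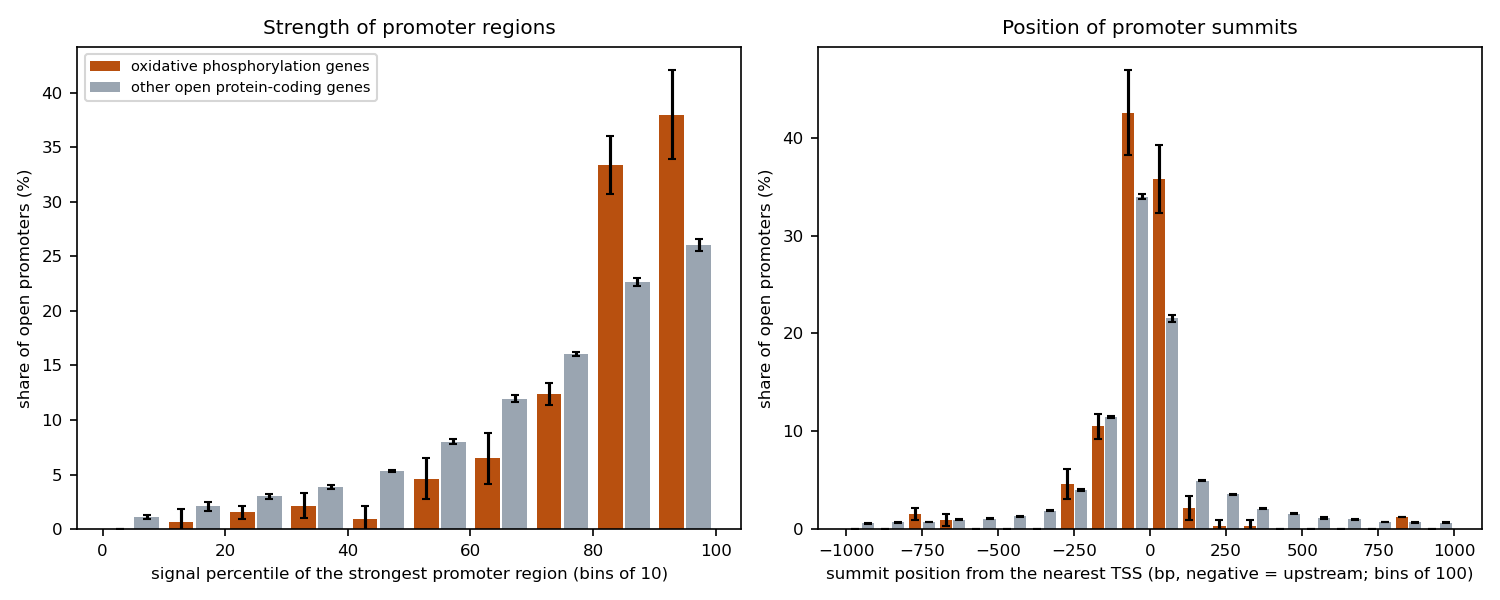
Left, share of open promoters (%) by signal percentile of the strongest region in bins of 10; right, share by summit position from the nearest TSS in bins of 100 bp, for the 81 open oxidative phosphorylation genes (orange) and 13973 other open protein-coding genes (grey). Bars are means and lines SD over 4 replicates; the orange bars are higher in the top bins (38.0% against 26.0% in the top one) and next to the TSS.

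Width and position were compared in the same way. The members' strongest regions had a median width of 1302.5 ± 27.5 bp, against 1328 ± 38.5 bp for the other open genes and 1413 ± 34.9 bp for the CpG-rich ones. Summits lay within 100 bp of a TSS in 78.4% ± 2.14 of members, against 55.6% ± 0.149 and 60.1% ± 0.228. Member summits were thus closer to start sites than those of either set in every replicate. The median summit stood at −10.25 ± 1.89 bp, against −18.5 ± 1.91 bp and −20.75 ± 1.89 bp, negative being upstream. More than 1 region in a replicate was found for 8.02% ± 1.23 of members, against 26.8% ± 0.325 of other open genes. Across members the wider regions were not the stronger ones: Spearman's rho of mean percentile and mean width was −0.311 over 81 genes, and 0.0223 over the other open genes.

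Several members departed from this layout. In 3 open members the summit of the strongest region lay over 500 bp from a TSS in every replicate. Ndufa11, an accessory gene of complex I, had summits from −712 to −624 bp from its TSS. Ndufa13, also an accessory gene, had summits from −725 to −722 bp from its own, in the widest region of any member, at 2489 ± 161 bp. The window of Ndufa11 also held the TSS of Vmac, and that of Ndufa13 those of Tssk6 and Yjefn3. The regions of Ndufa11 and Ndufa13 therefore cannot be assigned to the member or to a neighbour. Cox7b, described above, was the third, by its stronger internal region. In all, 6 members had at least 2 regions in every replicate, among them Atp5d and Cox7b. Ndufab1, which encodes the mitochondrial acyl carrier protein, had its main region at percentiles 91.5, 87.2, 87.9 and 89.4 and a lesser one at 65.0, 69.4, 70.5 and 67.1, near another annotated start site inside the gene. Ndufv2, a core gene, had its main region at 89.7, 85.7, 92.1 and 88.7 and an internal one at 65.7, 64.3, 70.9 and 71.1. In Ndufab1 and Ndufv2 the main region stood above the internal one in every replicate. Ndufa6, an accessory gene, was at 88.1, 90.2, 88.5 and 85.1 by its main region.

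Members often shared their promoter with a neighbour. The window of 33 of the 86 (38.4%) held the TSS of another protein-coding gene, and in 32 of them a partner was on the opposite strand. The background was 14.5% of all protein-coding genes and 23.4% of open genes with a CpG ratio of at least 0.6. All 33 were open, and for them the open region cannot be assigned to the member or to its partner. Some partners also act in mitochondria. Ndufb5 stood head to head with Mrpl47 and Ndufs6 with Mrpl36, both genes of mitochondrial ribosomal proteins, and Sdhd with Timm8b, a gene of mitochondrial protein import. Others act in cytosolic translation: Ndufa7 faced Rps28, a ribosomal protein gene, and Ndufs1 faced Eef1b2, an elongation factor gene. Atp5j, which encodes coupling factor 6 of the peripheral stalk, overlapped the start of Gabpa, the DNA-binding subunit of the GABP factor known to regulate respiratory genes, with their start sites 31 bp apart. The Atp5j and Gabpa promoter was at 89.2, 85.7, 83.8 and 87.7. By signal, the median percentile was 87.0 ± 1.01 for the 33 that shared and 87.6 ± 1.04 for the 48 open members that did not. This was a difference of less than 1 SD. Ranked by −log10 q, the medians were 91.4 ± 0.434 for those that shared and 87.5 ± 0.989 for those that did not. By that ranking the sharing members were higher in every replicate, so the comparison depends on the measure of strength.

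Transcription factor strings were counted from 250 bases before to 50 bases after the principal TSS on both strands. NRF1, GABP, YY1 and the oestrogen-related receptors are the factors best known for nuclear respiratory genes. The strict NRF1 string was in 4 members (4.65%), against 2.34% of other open CpG-rich promoters and 1.20% of all protein-coding promoters. The looser NRF1 string was in 12 (14%), against 12.1% and 6.08%. The ETS string was in 15 (17.4%), against 19.9% and 11.2%. In this window the looser NRF1 and ETS shares of members were near those of CpG-rich promoters. In the 300 bases on the summit the looser NRF1 string was in 22.2% of the 81 open members, against 10.9% of other open CpG-rich promoters and 8.72% of all open promoters. The strict form was there in 6.17%, against 1.94% and 1.59%, and the ETS string in 24.7%, against 19.7% and 16.6%. The NRF1 gap was thus wider on the summit than around the TSS. The ERR-like string was in 2 members, Atp5g3 and Sdhd (2.33%), against 0.176% and 0.379%. None of the ETS, YY1 and looser NRF1 strings was found in this window of 54 of the 86 members.

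The NRF1 matches are printed with 10 bases on each side, capitals marking the strict string.
Atp5g2: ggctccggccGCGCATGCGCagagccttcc
Atp5k: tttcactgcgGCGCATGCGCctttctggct
Cox6a1: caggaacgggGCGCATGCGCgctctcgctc
Ndufa11: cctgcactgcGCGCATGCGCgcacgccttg
They lie at chr15:102671070-102671099 (minus), chr5:108434430-108434459 (minus), chr5:115349101-115349130 (minus) and chr17:56717692-56717721 (plus). All 4 genes were open, at 93.2 ± 1.05 for Atp5g2, 93.3 ± 1.48 for Atp5k, 80.6 ± 2.72 for Cox6a1 and 81.4 ± 2.12 for Ndufa11. Atp5k encodes the e subunit of ATP synthase.

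The SP/KLF string was less frequent in member promoters than in other CpG-rich promoters. It was in 34 members (39.5%) and in 30 of the 69 CpG-rich ones (43.5%), against 73.2% of other open CpG-rich promoters and 45.5% of all. The median GC content of the window was 56.7% in the 69 CpG-rich members and 63.7% in the other open CpG-rich promoters; its part in the result was not tested. In the 300 bases on the summit the difference was smaller, at 60.9% of the 69 members against 69.9%. The NFY string was in 36.0% of members, against 37.3% and 38.4%. The CREB string was in 4.65%, against 3.94% and 2.48%, and the AP-1 string in 5.81%, against 3.55% and 6.74%. On the summit the NFY string was in 29.6% of open members, against 36.8% and 36.0%, and the CREB string in 7.41%, against 3.46% and 2.92%. The AP-1 string was there in 3.70%, against 5.68% and 8.46%, so its order against CpG-rich promoters turned with the window.

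The YY1 string was in 9 members (10.5%), against 5.08% of other open CpG-rich promoters and 3.09% of all. In the 300 bases on the summit it was in 18.5% of the 81 open members, against 5.80% and 4.97%. In 8 of the 9 it lay after the TSS on the strand of the gene, against 37.9% of the 676 promoters with the string among all genes. In all 8 the ATG inside the string was the annotated start codon of the principal transcript, which was so in 62.1% of the corresponding 256 of all genes. These letters are known both as a YY1 motif and as the core of the TISU element, at which translation starts on messenger RNAs with very short leaders. Accessibility data do not tell these roles apart. The 6 of these matches that are printed are aligned on the string, with 11 bases before it and 11 after.
Ndufa3: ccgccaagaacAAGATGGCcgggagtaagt
Ndufa4l2: gacactgggacAAGATGGCaggaactagtc
Ndufa9: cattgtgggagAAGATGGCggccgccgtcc
Ndufb8: cggagaaggtgAAGATGGCtgccgcccggg
Ndufs7: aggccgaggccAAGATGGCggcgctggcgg
Sdhc: ggccggaactcAAGATGGCtgcgttcttgc
They lie at chr7:3617384-3617413 (plus), chr10:127514968-127514997 (plus), chr6:126849097-126849126 (minus), chr19:44555386-44555415 (minus), chr10:80249462-80249491 (plus) and chr1:171150563-171150592 (minus). The exception, Atp5h, holds the string on the other strand 210 bases before its TSS, where the TSS of its partner Kctd2 lies 166 bases before it. Of these 9 genes only Ndufa4l2 was closed. Of the 9, 7 belong to complex I by symbol, Ndufa4l2 among them, where 38 of all 86 members do.

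**Figure D4:**
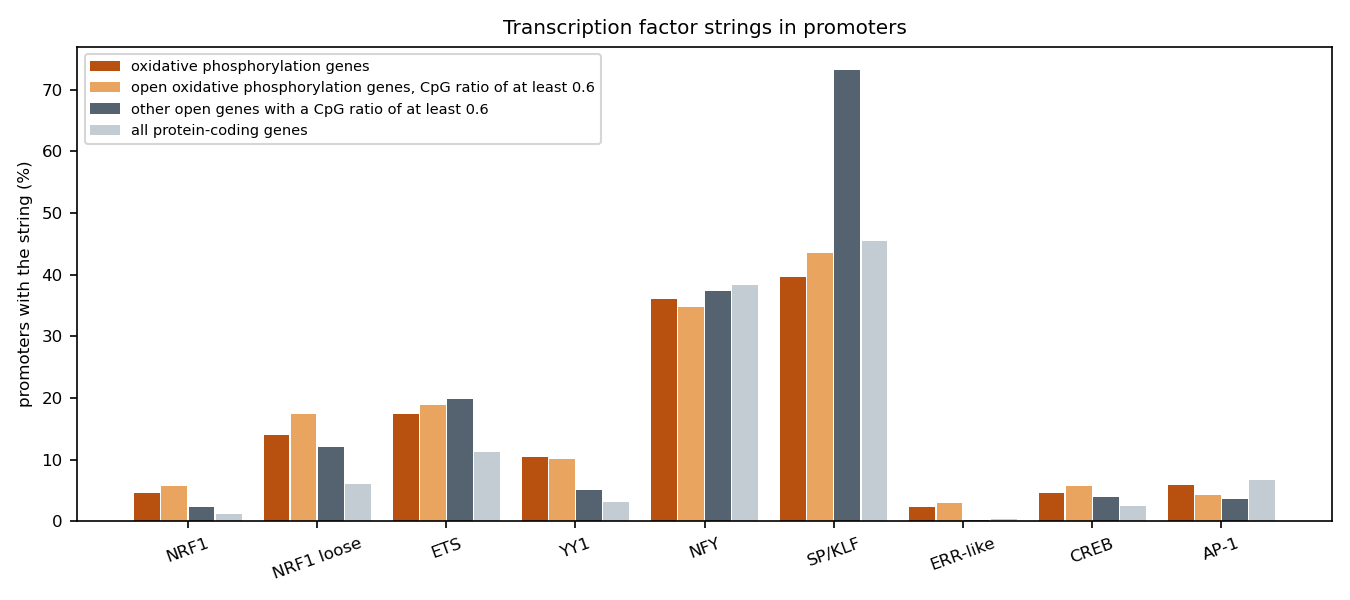
Share of promoters (%) holding each searched string from 250 bases before to 50 bases after the TSS, for the 86 oxidative phosphorylation genes, the 69 of them that were open with a CpG ratio of at least 0.6, other open genes with such a ratio, and all protein-coding genes. The YY1 bars are higher for the subunit genes (10.5% against 5.08% and 3.09%) and the SP/KLF bars lower (39.5% and 43.5% against 73.2%).

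Genes that build and regulate the complexes were measured beside their subunits. All 50 matched assembly factor genes were open, with a median percentile of 88.6 ± 0.675, and 45 of them had a CpG ratio of at least 0.6. Of these, Ndufaf7, which encodes a methyltransferase acting on a complex I subunit, was at 98.5 ± 0.815, and Atpaf1, an F1 assembly chaperone gene, at 30.7 ± 2.91. All 23 genes of mitochondrial biogenesis regulators were open, with a median of 84.1 ± 0.934. Polrmt, the mitochondrial RNA polymerase gene, was at 99.6 ± 0.148. Ppargc1a, the gene of the coactivator PGC-1alpha, was at 53.7 ± 3.35 with a CpG ratio of 0.195. With the summit required to lie in the window, Ppargc1a was no longer open in all 4 replicates. Mterf1a, a mitochondrial transcription termination factor gene, was at 14.3, 33.9, 42.3 and 27.9. Most of these genes are CpG-rich, and their openness is likewise close to the 93.9% background of such genes.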

How the data were processed

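ATAC-seq was run on 4 biological replicates of Th17 cells, with 1 peak list for each. Per the labels the lists refer to mm10; per the deposited notes each list comes from the alignment of its own library. Which aligner and peak caller were used is not given in the sources used here. Peak names of replicates 1 and 2 carry the tag KS134 and those of replicates 3 and 4 the tag KS136. All carry 72hrs and ASTARR.insert. No label explains these, so what they say of the libraries or the culture time is unknown; the assay is called ATAC-seq as in the labels. The deposited signal is read as enrichment over background from the layout of the lists, with no stated normalisation between replicates. The deposited −log10 q value is per region and served as an alternative ranking; the deposited −log10 p and the deposited display score were not used. Summits are a deposited offset in bp from the start of each region.

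Autosomal, X and Y regions were overlapped (at least 1 bp) with windows of 1000 bp on each side of every annotated TSS in GENCODE M21. Where several regions overlapped, the one of highest signal was used. Atp5o has 2 gene models under 1 symbol, counted once. The principal transcript had the best APPRIS tag, then support level, then length. Sequences came from RefSeq GRCm38.p6. Scripts used Python 3.11.15, numpy 2.4.6, scipy 1.17.1 and matplotlib 3.10.9, and overlap, ranking and motif search were tested on simulated data. The members and lists were chosen with earlier results of these data known. Coa1, of 51 listed assembly factor genes, was not matched. The values of 1 member are not reported here. With 1 group no test between groups applies; counts and medians stand beside the same over all protein-coding genes. The text names every paralog and closed member, the extremes of each complex, the 5 highest and 5 lowest of all, the 3 largest SDs, complex II, Cyc1, members with at least 2 regions in every replicate, and list examples; other members were named after their values were seen. Alternatives covered windows, thresholds, rankings and each replicate left out.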

Additional observations from a re-analysis of the deposited data

Results flagged for a closer look

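Of 48 quantities over 4 replicates that the report gives, 3 had a replicate far from the others by Dixon's criterion, about as many as the 1 in 20 groups that chance flags. Ndufb10 had a signal percentile of 23.8 in replicate 2, below 26.8 to 27.3 in the others. Sdhb had 83.7 in replicate 4, below 85.2 to 85.5 in the others. Uqcr11 had 63.8 in replicate 2, below 71.4 to 72.1 in the others. The low −log10 q percentile of Sdhd in replicate 1, given above, is not among these 3.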

How the results depend on the processing

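The count of 81 open members stood at 77 to 81 under the planned settings. It was 80 with a −log10 q of at least 10 (Cox4i2 lost; 60.7% of all genes), 77 with the 50000 strongest regions (Atp5d, Cox4i2, Cox7b and Ndufb10 lost; 55.5%), and 80 with the principal TSS alone (Ndufs5 lost; 59.9%). It was 81 with a window of 500 bp (62.6%), with the summit in the window (61.7%) and with at least 3 or 2 replicates (65.4% and 66.5%). Over the same settings the tissue-restricted genes stood at 2 or 3, the assembly factors at 48 to 50 and the regulators at 22 or 23. Among members with no other TSS in the window, a setting added after seeing the data, 48 were open, since 53 members enter. The median percentile of 87.2 was 89.6 ranked by −log10 q, and 76.9 among promoter regions alone, where other open genes had 64.1. For single genes, the −log10 q ranking left 15 of 81 within 1 SD, with 43 higher and 23 lower. The median summit, at −10.25 bp, was −1 bp from the principal TSS. In the window from 500 before to 100 after the TSS, the NFY share was 48.8% (53.7% of other open CpG-rich promoters) and the SP/KLF share 52.3% (81.3%). On the summit the SP/KLF share was 55.6% (69.9%). Rarer strings moved by more in proportion: in the wider window YY1 was in 18.6% of members (7.82%), AP-1 in 11.6% (8.66%), ETS in 26.7% (24.9%) and the looser NRF1 string in 19.8% (14.4%), the last in 22.2% on the summit (10.9%). With each replicate left out in turn, open members stayed at 81, tissue-restricted genes at 3, assembly factors at 50 and regulators at 23. The median percentile then ran from 86.9 to 87.7, the width from 1294 to 1315 bp and the summit from −10.7 to −9.33 bp. By library tag, added after seeing the data, the median percentile was 86.8 for KS134 and 87.7 for KS136. No paired analysis was possible because there is 1 group. Depth is unknown, so a promoter without a region was not detectably open at these lists' thresholds, which does not show that it is closed.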

Other observations

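The mitochondrial genome encodes 13 further subunits, which the rule leaves out because they are not nuclear. Each replicate's list held 2 regions on it, broad and of low enrichment. The first ran from about base 128 to 4794 (replicate 1) over mt-Nd1 and mt-Nd2, genes of complex I. The other ran from 10814 to 16109 (replicate 1) over mt-Nd4, mt-Nd5, mt-Nd6 and mt-Cytb, the last a gene of complex III. Together they overlapped 6 of the 13 protein-coding genes in every replicate. Their deposited signal was 2.42 to 2.83 and stood between percentiles 4.86 and 9.44 of the replicates' regions, while their −log10 q was 1826 to 3831. As background, mitochondrial DNA carries no nucleosomes and is present in many copies per cell.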
